A study of Mus musculus with 6 samples.

Results

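Cholesterol genes were compared between mouse osteosarcoma cell lines and cultured mouse osteoblasts. They are 29 genes of cholesterol synthesis, its sensing, the movement and esterification of cholesterol inside the cell, and its efflux, chosen by name. A gene was read from the Affymetrix probe set with its symbol in the platform annotation, and where several carried it, from the brightest one on average over the 6 arrays. Of the 29, 26 were measured, among 19938 genes in all. Acat2, Soat1 and Nr1h2 were not analysed here. Among the 29, the measured genes for uptake and the onward movement of cholesterol were Mylip, Npc1, Npc2 and Stard4. Lipoprotein receptors that are not among them are given below with other genes of sterol handling.

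The osteosarcoma group was 3 cell lines, OS_493H, OS_494H and OS_716H, each grown from a primary tumour of a C57Bl6 mouse that carried Osx-Cre and was fl/fl at both Rb and p53. In this model Cre is driven by the promoter of Osterix (Sp7), a gene of the osteoblast lineage, so recombination is directed to bone-forming cells. The labels give a hip tumour of a female aged 188 for OS_493H, a hip tumour of a male aged 190 for OS_494H and a tibial tumour of a female aged 226 for OS_716H, with no unit of age. The osteoblast group was 3 samples of KUSA4b10, a C57Bl6 mouse bone marrow stromal line, kept for 21 days after confluence in medium with 50 ug/ml ascorbate, and they are called cultures 1 to 3 here. All cells were grown in the same serum-supplemented medium, and the labels give no period of confluence or ascorbate for the tumour lines. The comparison therefore cannot tell tumour origin apart from growth state or from the cell line, since all osteoblast samples are 1 line. The titles tag cultures 1 to 3 in order as Ex1 to Ex3. They do not say what the tag means or whether the 3 cultures were grown apart.

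Cells make cholesterol from acetyl-CoA through mevalonate, farnesyl diphosphate, squalene and lanosterol. When membrane sterol is low, the escort protein SCAP carries the membrane-bound transcription factor SREBP2 to the Golgi, where proteases release its active part, which switches on most enzymes of the pathway and its own gene. The INSIG proteins hold SCAP back when sterol is plentiful. Oxysterols, which build up when cholesterol is in excess, activate the liver X receptors (LXR), which switch on exporters such as ABCA1 and ABCG1 and the ubiquitin ligase MYLIP, which sends lipoprotein receptors to degradation.

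Values are log2 expression after RMA, with array medians between 7.45 and 7.58 over all probe sets. Differences are osteosarcoma minus osteoblast, tested with limma over all 19938 genes, and calls were made where the p after Benjamini-Hochberg adjustment was under 0.05. Rb1, a gene targeted in the model, was at 9.26, 9.70 and 9.87 in the lines against 10.68, 10.66 and 10.66 in the cultures, and whether its probes lie in the deleted stretch was not analysed here. The array labelled OS_716H, a female, carried the Y-linked Eif2s3y at 10.11, near the 9.96 of the male line OS_494H, and Xist at 5.50, far from the 12.62 of OS_493H. Culture 2 stood apart from the other cultures, with 150 and 186 genes differing by more than 1 log2 unit from cultures 1 and 3, which differed from each other at 3 genes. With all arrays 16 cholesterol genes were higher and 2 lower in the lines. Without OS_716H the counts were 16 and 3, and without culture 2 they were 16 and 4. The cultures, labelled as osteoblasts, also carried a fat cell marker, since Adipoq was at 5.88, 6.13 and 5.79 in the lines against 12.42, 11.50 and 11.71 in the cultures. There were 3 arrays in each group, which limits the precision of every value.

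Short stretches of promoter are printed for 6 genes, namely 3 synthesis enzymes, the gene of SREBP2, the exporter Abca1 and, as a sensing gene with no called difference, Insig1. Each is the 250 bases before the transcription start in the RefSeq annotation of GRCm38.p6, 5′ to 3′ on the gene's own strand. Of the 26 measured genes, 20 had such a sequence. Capitals mark matches, on either strand, to TCACNNCA, a loose form of the sterol regulatory element bound by SREBP, to its stricter form TCACNCCAC, to CCAAT, the letters of the box bound by the SREBP partner NF-Y, to the E-box CACGTG, and to 2 copies of GGTNA with 5 bases between them, a form of the direct repeat (DR4) bound by LXR. TCACNCCAC always contains TCACNNCA.
Hmgcs1 (a synthesis enzyme with the strict sterol element, chr13:119690101-119690350, plus strand): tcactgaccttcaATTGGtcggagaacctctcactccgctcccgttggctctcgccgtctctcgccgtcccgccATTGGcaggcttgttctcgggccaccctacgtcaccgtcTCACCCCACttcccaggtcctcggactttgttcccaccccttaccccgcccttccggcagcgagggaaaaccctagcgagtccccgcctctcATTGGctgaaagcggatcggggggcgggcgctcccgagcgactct
Srebf2 (the gene of SREBP2, chr15:82147019-82147268, plus strand): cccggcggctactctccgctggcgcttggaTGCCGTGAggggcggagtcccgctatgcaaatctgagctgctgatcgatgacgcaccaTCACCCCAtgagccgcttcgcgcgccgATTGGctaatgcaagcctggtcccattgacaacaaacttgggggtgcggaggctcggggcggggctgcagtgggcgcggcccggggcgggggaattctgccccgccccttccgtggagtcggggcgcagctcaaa
Mvk (the member with the most CCAAT letters, chr5:114444019-114444268, plus strand): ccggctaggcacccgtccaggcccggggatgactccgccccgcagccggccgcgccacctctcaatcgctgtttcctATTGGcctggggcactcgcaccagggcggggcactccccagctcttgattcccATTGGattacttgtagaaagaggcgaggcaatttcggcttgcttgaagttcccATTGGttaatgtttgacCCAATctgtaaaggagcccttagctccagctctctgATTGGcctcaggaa
Idi1 (the enzyme with the largest difference, chr13:8885356-8885605, plus strand): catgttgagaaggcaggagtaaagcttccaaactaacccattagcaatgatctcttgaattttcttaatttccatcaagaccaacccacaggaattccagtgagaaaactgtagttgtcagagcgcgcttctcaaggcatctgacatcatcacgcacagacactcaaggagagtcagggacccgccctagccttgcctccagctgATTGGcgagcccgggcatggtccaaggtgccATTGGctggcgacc
Insig1 (a sterol sensing gene with no called difference, chr5:28071162-28071411, plus strand): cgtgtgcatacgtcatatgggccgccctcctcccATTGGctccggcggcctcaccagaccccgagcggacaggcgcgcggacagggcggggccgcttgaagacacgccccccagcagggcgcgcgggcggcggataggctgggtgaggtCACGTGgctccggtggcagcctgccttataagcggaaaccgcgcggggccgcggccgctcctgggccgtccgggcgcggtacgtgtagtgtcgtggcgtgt
Abca1 (the cholesterol exporter, chr4:53159896-53160145, minus strand): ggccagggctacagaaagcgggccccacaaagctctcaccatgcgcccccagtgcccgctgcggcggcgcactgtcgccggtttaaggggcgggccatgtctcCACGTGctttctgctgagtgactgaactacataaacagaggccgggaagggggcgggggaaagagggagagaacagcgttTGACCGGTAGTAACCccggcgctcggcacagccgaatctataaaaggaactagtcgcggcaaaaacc

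The strict sterol element occurred in Hmgcs1, at positions -137 to -129 from the start, and in no other of the 20 promoters, against 1.20% of the 15614 tested genes with a promoter sequence. Its loose form was in 7 of the 20, namely Hmgcs1, Pmvk, Cyp51, Hsd17b7, Dhcr7, Srebf2 and Insig2, against 12.0% of tested genes. CCAAT was in 17 of the 20 and in each of the 12 synthesis enzymes with a sequence, against 38.8% of tested genes. Mvk held 5 copies. Abca1 alone among the 20 held the direct repeat, at positions -67 to -53 on the opposite strand, against 0.596% of tested genes. The E-box was in Hsd17b7, Dhcr7, Scap, Insig1 and Abca1, against 8.11%. A match is a string of letters and was not tested for binding, and the motifs were chosen with the sequences in view. For 5 genes RefSeq gives more than 1 start, and a match before any of them was counted.

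Synthesis genes were higher in the osteosarcoma lines nearly throughout, and the LXR genes were lower or not called. Of the 26 measured members, 16 were higher and 2 were lower in the lines, against 24.6% of all genes called, 13.2% higher and 11.4% lower. Their median log2 difference was 1.32, against -0.02 over all genes. The arrays of the groups did not overlap for 19 of the 26, against 41.5% of all genes. The members were picked with earlier results of these arrays known, so these counts describe the list.

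**Figure D1:**
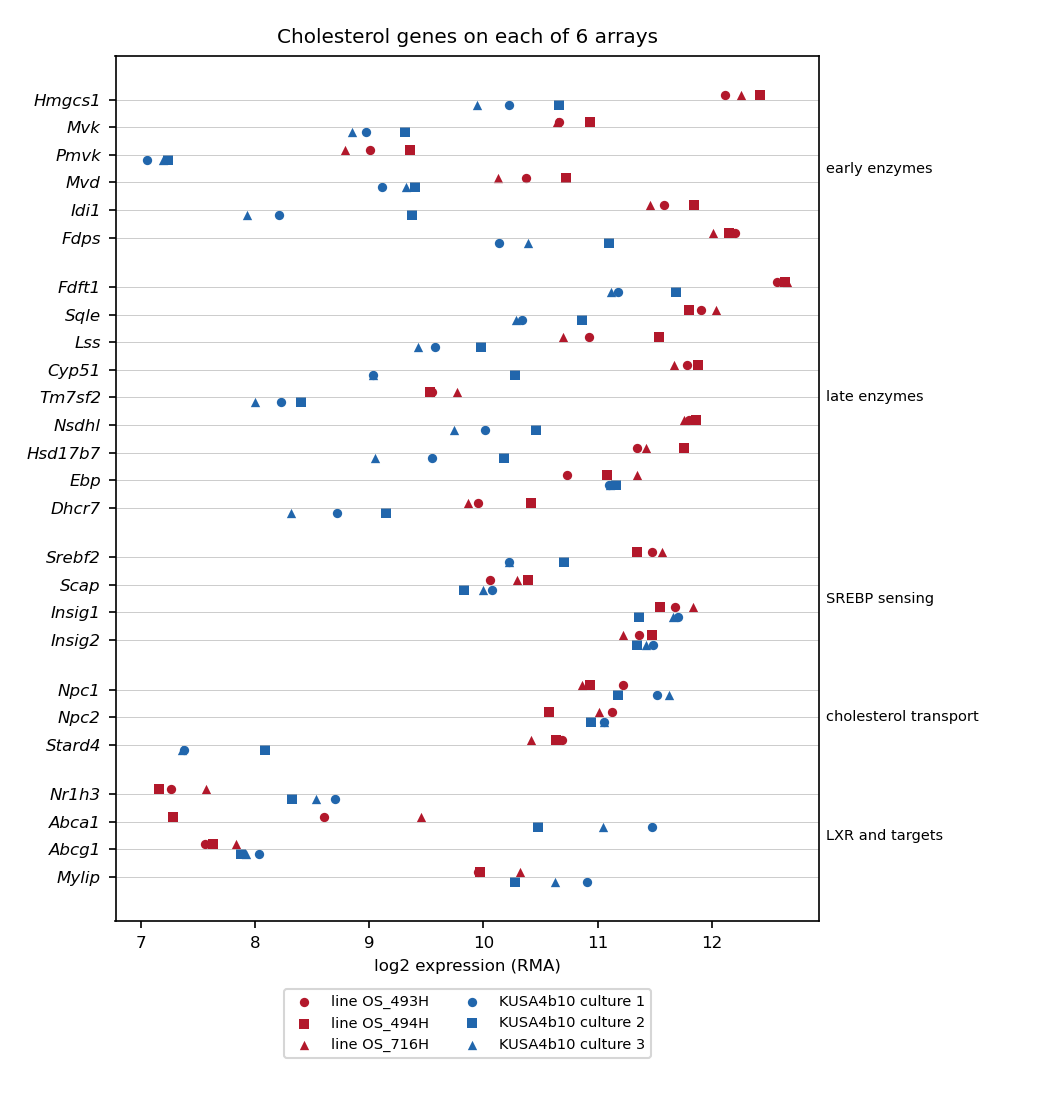
Log2 expression of the 26 measured cholesterol genes on each of the 6 arrays, grouped by role, with osteosarcoma lines in red above and KUSA4b10 cultures in blue below on each row. For 14 of the 15 synthesis enzymes all lines lie to the right of all cultures, while for Nr1h3, Abca1 and Abcg1 at the bottom all lines lie to the left, and for Mylip the groups overlap.

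The first stretch of the pathway leads to farnesyl diphosphate, and all 6 of its measured members were higher in the lines, with log2 differences of 1.13 to 3.12. Hmgcs1, which makes HMG-CoA, the substrate of the rate-limiting step, was at 12.12 in OS_493H, 12.42 in OS_494H and 12.26 in OS_716H, against 10.23, 10.66 and 9.95 in cultures 1, 2 and 3. Every line stood more than 1 log2 unit above every culture. The difference was 1.99 ± 0.19 (SE, limma adjusted p = 0.00114). Idi1, the isomerase of the isoprene building blocks, had the largest difference of all members. It was at 11.58, 11.85 and 11.46 in the lines, against 8.21, 9.37 and 7.93 in the cultures. The lines were close together and culture 2 was well above the other cultures, for a difference of 3.12 ± 0.36 (SE, adjusted p = 0.00194), or 8.72-fold. A further Idi1 probe set gave 3.12 as well.

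Pmvk, the phosphomevalonate kinase, was at 9.01, 9.36 and 8.79 in the lines, against 7.06, 7.24 and 7.20 in the cultures (difference 1.89 ± 0.15 SE, adjusted p = 7.20e-04). Here the cultures were the tighter group and sat below the median of all genes, 7.94. They may lie near background, so the size is uncertain. Mvk, the mevalonate kinase, was at 10.66, 10.93 and 10.64 in the lines, against 8.97, 9.31 and 8.85 in the cultures, and was 3.25-fold higher. Mvd, the decarboxylase that follows these kinases, had the smallest difference of the 6, at 10.37, 10.72 and 10.12 in the lines against 9.12, 9.40 and 9.32 in the cultures (1.13 ± 0.16 SE, adjusted p = 0.00401). Fdps, the farnesyl diphosphate synthase, averaged 12.12 ± 0.10 in the lines and 10.54 ± 0.50 in the cultures (SD, n = 3 each), a 2.98-fold difference with adjusted p = 0.00468 in limma.

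The later stretch, from squalene to cholesterol, had 9 measured members, of which 8 were higher and Ebp was not called. Sc5d and Msmo1, enzymes of the same stretch that are not members, are given below with other genes of sterol handling. Cyp51, the lanosterol demethylase, differed most. It was at 11.78, 11.88 and 11.67 in the lines, against 9.03, 10.28 and 9.04 in the cultures (2.33 ± 0.33 SE, adjusted p = 0.00380). Hsd17b7, a ketone reductase of sterol demethylation, was at 11.35, 11.76 and 11.42 in the lines, against 9.55, 10.18 and 9.05 in the cultures, a 3.77-fold difference. Both genes showed the same layout, with narrow lines and culture 2 nearest to them. Nsdhl, the dehydrogenase of the same demethylation, averaged 11.81 ± 0.05 in the lines and 10.07 ± 0.36 in the cultures (SD, n = 3 each), a 3.33-fold difference.

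The enzymes around squalene and the remaining reductases were 2.45-fold to 2.67-fold higher in the lines. Fdft1, the squalene synthase at the branch point to sterols, was at 12.57, 12.64 and 12.66 in the lines, against 11.18, 11.69 and 11.12 in the cultures (1.29 ± 0.16 SE, adjusted p = 0.00220), and its dimmer probe set gave 1.47. Sqle, the squalene epoxidase, was at 11.91, 11.80 and 12.04 in the lines, against 10.34, 10.86 and 10.29 in the cultures, 2.67-fold higher. Lss, the lanosterol synthase, had the widest spread among lines of the called enzymes, at 10.93, 11.54 and 10.70, against 9.58, 9.98 and 9.42 in the cultures (1.39 ± 0.24 SE, adjusted p = 0.00781). Tm7sf2, a sterol reductase, averaged 9.62 ± 0.13 in the lines and 8.21 ± 0.21 in the cultures (SD, n = 3 each). Dhcr7, the reductase that yields cholesterol from its dehydro precursor, was at 9.96, 10.41 and 9.87 in the lines, against 8.71, 9.15 and 8.31 in the cultures (1.35 ± 0.24 SE, adjusted p = 0.00818).

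Ebp, the sterol isomerase between lanosterol-derived intermediates and cholesterol, was the exception. It was at 10.74, 11.08 and 11.34 in the lines, against 11.10, 11.16 and 11.11 in the cultures. The lines lay on either side of the cultures, and the difference of -0.07 had a 95% interval of -0.43 to 0.29 (adjusted p = 0.787). Its promoter held CCAAT and neither form of the sterol element, as did those of the called enzymes Mvk, Mvd, Idi1, Lss, Tm7sf2 and Nsdhl. Every called enzyme kept its call on leaving out any 1 array.

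**Figure D2:**
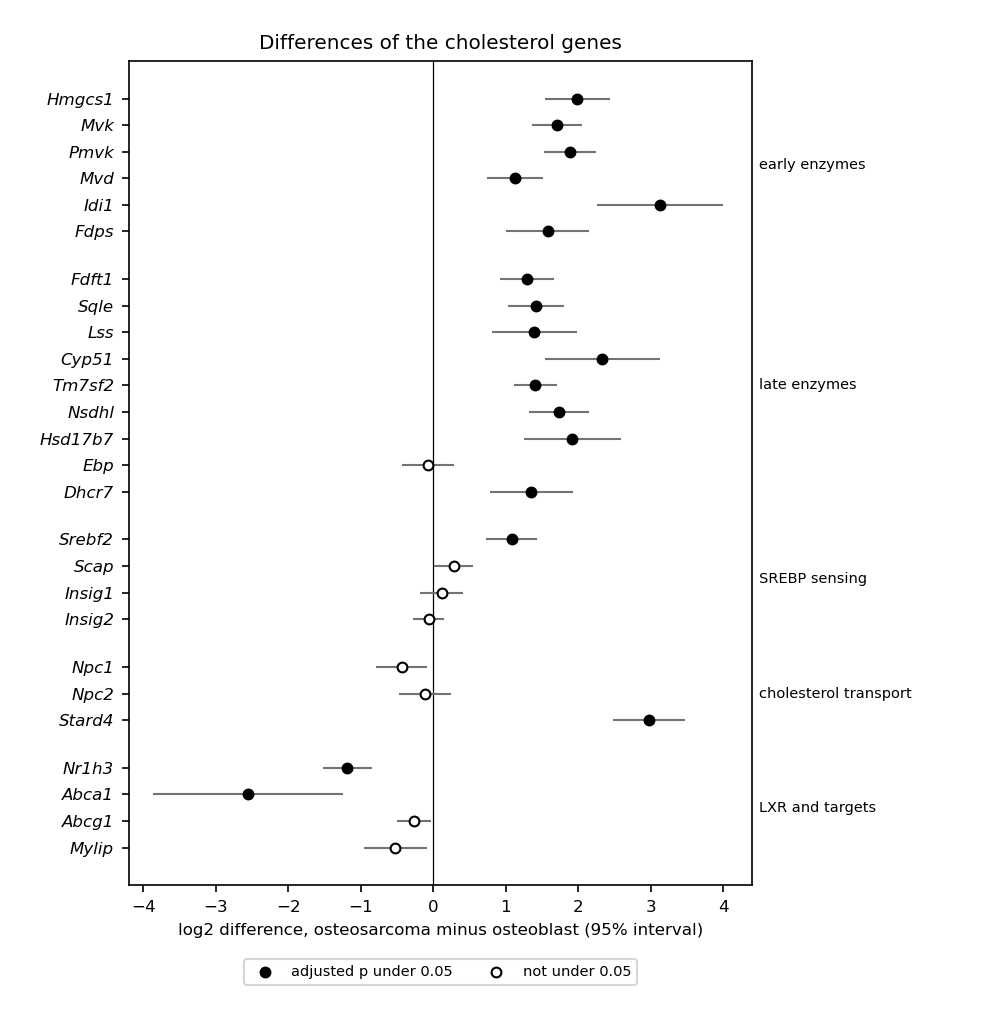
Log2 difference, osteosarcoma minus osteoblast, of each measured cholesterol gene with its 95% interval from limma over all genes, filled where the adjusted p is under 0.05. The synthesis enzymes, Srebf2 and Stard4 lie between 1.08 and 3.12 except for Ebp, and Nr1h3 and Abca1 lie at -1.19 and -2.56.

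The sensing genes did not move as a group. Srebf2, which encodes SREBP2 and is itself an SREBP target, was at 11.47, 11.35 and 11.57 in the lines, against 10.22, 10.70 and 10.22 in the cultures. All lines were above all cultures, with a difference of 1.08 ± 0.15 (SE, adjusted p = 0.00342). Insig1, whose gene is among the best known SREBP targets, was at 11.68, 11.55 and 11.83 in the lines, against 11.71, 11.36 and 11.66 in the cultures. The groups overlapped, and the difference of 0.11 had a 95% interval of -0.18 to 0.41 (adjusted p = 0.576), an interval that lies below those of the 14 called enzymes. Culture 2, the highest culture for all 15 enzymes, was the lowest for Insig1. Insig2, the less sterol-responsive paralogue, averaged 11.35 ± 0.12 in the lines and 11.42 ± 0.07 in the cultures (SD, n = 3 each), with an interval of -0.28 to 0.15. Scap, the escort of SREBP, averaged 10.25 ± 0.17 in the lines and 9.97 ± 0.13 in the cultures (SD, n = 3 each), and did not pass (difference 0.28, adjusted p = 0.126 in limma).

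The Srebf2 gene also hosts the microRNA miR-33 in an intron, which in mouse is known to lower Abca1. Its hairpin probe set, Mir33, was at 4.34, 4.17 and 4.64 in the lines against 4.52, 4.64 and 4.41 in the cultures, among the dim values of arrays that span 3.04 to 14.88. It was named after its values were seen, and mature miR-33 was not analysed here.

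Of the genes that move cholesterol inside the cell, Stard4 was higher and the lysosomal pair Npc1 and Npc2 was not called. Stard4, a soluble sterol carrier and an SREBP target, was at 10.69, 10.63 and 10.42 in the lines, against 7.37, 8.09 and 7.36 in the cultures. The nearest culture lay more than 2 log2 units under the nearest line, and the difference of 2.97 ± 0.21 (SE, adjusted p = 5.65e-04) equals 7.85-fold. Cultures 1 and 3 were below the median of all genes and may lie near background, so the size is uncertain. Npc1, the membrane protein that lets cholesterol leave lysosomes, was at 11.22, 10.94 and 10.86 in the lines, against 11.52, 11.18 and 11.62 in the cultures. It did not pass (-0.44, adjusted p = 0.0805), and the groups overlapped through OS_493H and culture 2, but it passed without culture 2 (-0.57, adjusted p = 0.0363). Npc2, its soluble partner, averaged 10.91 ± 0.29 in the lines and 11.02 ± 0.07 in the cultures (SD, n = 3 each), with an interval of -0.47 to 0.24.

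The LXR genes had lower means in the lines, and 2 of the 4 measured passed the test, against 11.4% of all genes called lower. Nr1h3, which encodes LXR alpha, was at 7.27, 7.16 and 7.57 in the lines, against 8.70, 8.32 and 8.54 in the cultures. All lines were below the median of all genes and all cultures above it, with a difference of -1.19 ± 0.14 (SE, adjusted p = 0.00213). The lines may lie near background here, so the size is uncertain. Abca1, the exporter that loads cholesterol onto apolipoprotein A-I, was at 8.60, 7.28 and 9.46 in the lines, against 11.48, 10.48 and 11.05 in the cultures. Each line lay more than 1 log2 unit below each culture, yet the lines were spread over 2.18 log2 units, the widest range of any member. The difference of -2.56 ± 0.55 (SE, adjusted p = 0.0165) equals 5.88-fold lower. OS_494H was below the median of all genes and may lie near background, so the size is uncertain. The difference was -1.97 without OS_494H and -3.06 without OS_716H. Its call was lost without culture 1 (-2.32, adjusted p = 0.0696) or culture 3 (-2.53, adjusted p = 0.0624), and when cultures 1 and 3 were averaged into 1 sample (-2.43, adjusted p = 0.0663).

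Abcg1, which exports cholesterol to lipoprotein particles, and Mylip did not pass. Abcg1 lay near the median of all genes on every array, at 7.57, 7.63 and 7.84 in the lines against 8.04, 7.88 and 7.92 in the cultures, without overlap (-0.27, adjusted p = 0.094). Mylip was at 9.95, 9.97 and 10.32 in the lines, against 10.91, 10.28 and 10.62 in the cultures, overlapping only where OS_716H met culture 2 (-0.52, adjusted p = 0.0855). The number of these 4 genes called lower moved with the setting, from 1 without culture 1 or culture 3 to 4 with array weights. Without OS_716H, Abcg1 passed (-0.35, adjusted p = 0.0342), and without culture 2, Mylip passed (-0.68, adjusted p = 0.0352). Apoe, an LXR target and acceptor of exported cholesterol that was named after its values were seen, was at 9.57, 8.95 and 9.70 in the lines against 12.62, 12.09 and 12.25 in the cultures (adjusted p = 7.10e-04).

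Within each group, the array with the highest median of synthesis enzymes had the lowest median of the LXR genes. Culture 2 had the highest value among cultures for all 15 enzymes, by 0.06 to 1.31 log2 units over the mean of cultures 1 and 3, with a median of 0.54. It had lower values than that mean for all 4 LXR genes, with a median of -0.39 and -0.78 for Abca1. Over all genes the median of this difference was 0.00, with 9807 genes higher and 10127 lower. Stard4 and Srebf2 followed the enzymes in culture 2, by 0.72 and 0.48. Among the lines, OS_494H was the highest for 10 of the 15 enzymes and had the lowest Nr1h3 and Abca1. Abcg1 and Mylip were lowest in OS_493H, at 7.57 and 9.95 against 7.63 and 9.97 in OS_494H. OS_716H was the lowest line for 9 enzymes and had the highest Nr1h3, Abca1, Abcg1 and Mylip. With 3 arrays in each group, these orders are descriptions and were not tested.

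**Figure D3:**
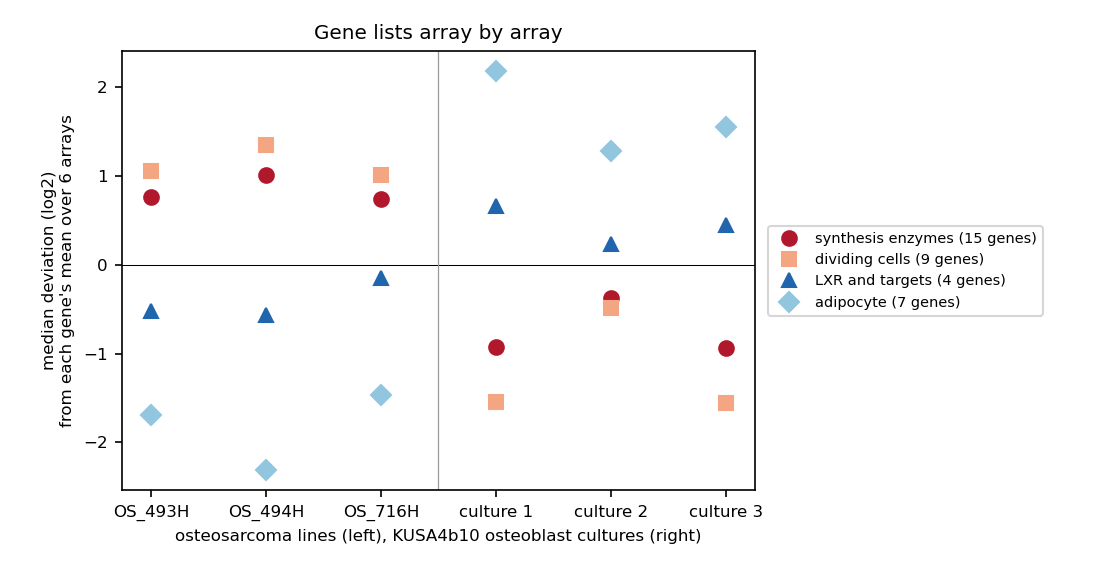
Median over each gene list of the deviation of log2 expression from the gene's mean over all arrays, for each line (left) and culture (right). Synthesis enzymes and genes of dividing cells are highest in OS_494H among the lines and in culture 2 among the cultures, where LXR genes and adipocyte markers are lowest.

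Markers of growth and of fat cells moved with these genes, and their part in the differences was not tested. Over all genes, 13.2% were called higher and 11.4% lower. All 9 measured genes of dividing cells were higher in the lines, led by Kif20a (3.19), Bub1 (2.75) and Rrm2 (2.66), and their median level was 11.51 to 11.88 in the lines against 8.99 to 9.91 in the cultures. Culture 2 exceeded the mean of cultures 1 and 3 for all 9, with a median of 1.07, and also for 6 of 7 osteoblast markers, with a median of 0.66. All 7 measured adipocyte markers were lower in the lines, at median levels of 7.18 to 7.43 in the lines against 11.50 to 12.27 in the cultures. Cd36 was at 5.45 to 5.59 in the lines against 10.03 to 11.52 in the cultures, and Retn was at 7.13 to 7.19 in the lines against 11.73 to 12.27 in the cultures. No size is given for Cd36 and Retn, since the lines' values were dim and cannot be told from background. Plin1 and Cidec were also below the median of all genes in every line. Other fat cell markers were not dim there. Fabp4 was at 10.05, 8.50 and 9.35 in the lines against 12.75, 11.85 and 12.36 in the cultures. Lpl was at 12.26, 10.16 and 11.63 in the lines against 13.68, 13.27 and 13.69 in the cultures. In such bulk samples fewer fat cells and less RNA per cell cannot be told apart. Of 7 measured macrophage and osteoclast genes, Acp5 was higher (0.86), Ctsk was lower (-1.65) and 5 were not called. Ptprc, Csf1r, Adgre1 and Lyz2, which mark blood-derived cells, lay between 5.57 and 6.89 on every array, below the median of all genes, while Cd68, a further macrophage gene, was at 7.92 to 8.37 in the lines and 8.14 to 8.37 in the cultures. Of 7 measured osteoblast markers, Ibsp, Phex and Dmp1 were lower and 4 were not called. Ibsp, a bone matrix gene, was at 6.40 to 8.20 in the lines and 12.91 to 13.67 in the cultures, and the collagen gene Col1a1 was at 12.81 to 13.55 in the lines and 12.98 to 13.77 in the cultures. Of 4 hepatocyte genes, Cyp7a1 was lower and 3 were not called, and Alb was between 5.60 and 5.78 on every array. Cyp7a1 was at 5.53 to 5.88 in the lines and 6.79 to 7.29 in the cultures. All its values were below the median of all genes and cannot be told from background.

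Other genes of sterol handling were divided. Of 18 measured, 6 were higher and 5 lower in the lines, against 13.2% and 11.4% of all genes. The median difference was -0.01. Of the synthesis enzymes on that list, Sc5d, a sterol desaturase, was at 11.48, 11.78 and 11.43 in the lines against 9.68, 9.97 and 9.80 in the cultures (1.75 ± 0.12 SE, adjusted p = 6.02e-04). Msmo1, a sterol methyl oxidase, was at 12.22, 12.41 and 11.93 in the lines against 10.43, 11.05 and 10.39 in the cultures (1.56 ± 0.21 SE, adjusted p = 0.00318). Both resembled the enzymes above in size and in the high place of culture 2. Cyp27a1, which makes an oxysterol that can activate LXR, was at 6.89, 6.87 and 7.09 in the lines, against 8.36, 8.57 and 8.37 in the cultures (-1.49 ± 0.10 SE, adjusted p = 5.05e-04). Its values in the lines may lie near background, so the size is uncertain. Cyp7b1, which hydroxylates and clears oxysterols, was high in some lines only, at 8.50 in OS_493H and 8.68 in OS_716H but 5.58 in OS_494H, against 5.51, 5.57 and 5.52 in the cultures (2.05, adjusted p = 0.111). The LXR targets Srebf1 and Lpcat3, named after their values were seen, were higher in the lines (0.40 and 0.65, adjusted p = 0.0149 and 0.00173), in the opposite direction to Abca1. Of the lipoprotein receptors, also named after their values were seen, Scarb1 was higher (0.63, adjusted p = 0.0300), and Vldlr (-0.26) and Lrp1 (-0.17) were not called.

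The branches that lead from the same pathway to other isoprenoids had smaller differences than the called enzymes, from -0.45 to 0.66. Of 9 measured genes, 2 were called, near the share of 24.6% over all genes. Fntb, a farnesyl transferase subunit, was higher (0.66, limma adjusted p = 0.0119). Nus1, a subunit of the enzyme for dolichol synthesis, was lower (-0.45, adjusted p = 0.0197), and 7 were not called. The median difference of the 9 was -0.12. Fnta, the partner subunit of Fntb, differed by 0.48 (adjusted p = 0.0738), and Pdss2, of ubiquinone synthesis, by -0.35 (adjusted p = 0.238).

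Fatty acid synthesis, which is driven mainly by SREBP1 and starts from the same acetyl-CoA, was higher in part. Of 11 measured genes, 8 were higher and 2 lower, against 13.2% and 11.4% of all genes. Their median difference was 0.59, against 1.57 for the cholesterol enzymes. Acss2, which makes cytosolic acetyl-CoA from acetate, was at 10.21, 10.03 and 9.69 in the lines against 7.62, 7.67 and 7.30 in the cultures (2.45 ± 0.16 SE, adjusted p = 5.05e-04). Acly, which makes it from citrate, was 2.42-fold higher, and the elongase Elovl6 and the desaturase Fads2 were 2.84-fold and 2.01-fold higher. The 2 that were lower, Scd1, a desaturase abundant in fat cells, and Mid1ip1, differed by -0.49 and -0.33.

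**Figure D4:**
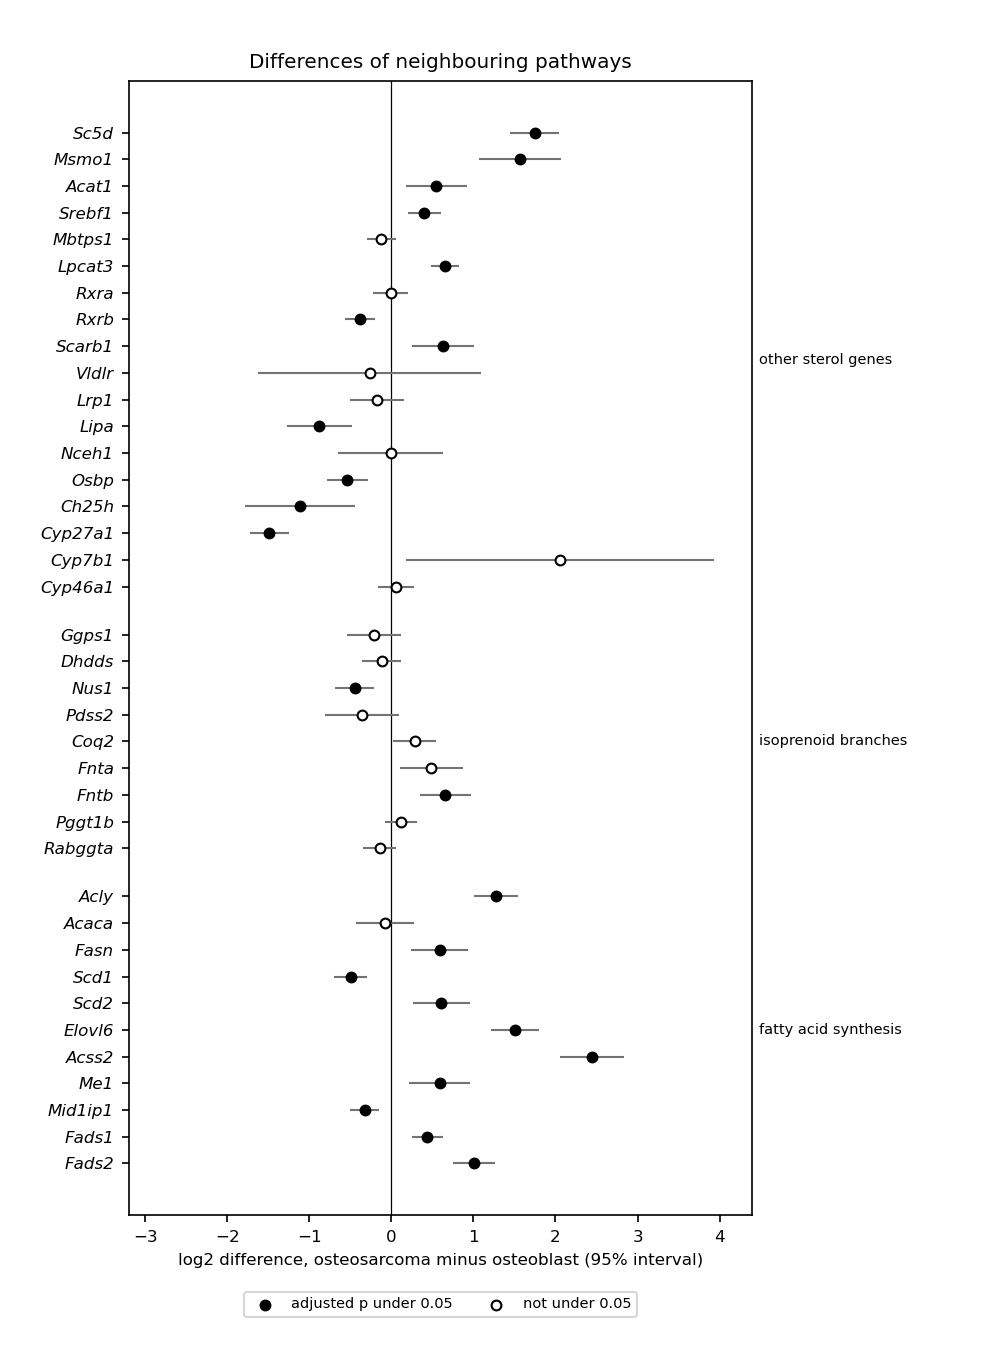
Log2 difference, osteosarcoma minus osteoblast, with 95% intervals, for further sterol genes, for isoprenoid branches and for fatty acid synthesis, filled where the adjusted p is under 0.05. Sc5d, Msmo1, Acss2, Elovl6, Acly and Fads2 lie above 1, as does Cyp7b1 with a wide interval and no call, while the isoprenoid branch genes lie between -0.45 and 0.66.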

How the data were processed

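The 6 arrays, 3 of osteosarcoma lines and 3 of KUSA4b10 osteoblast cultures, were taken as deposited log2 expression values for 35556 probe sets, which the authors made with RMA and which list build mm9, per the submitters' processing notes. Which software ran RMA was not given in the sources used here. Such values carry no detection call. No scan dates were used, so no batch was tested. Groups came from the sample titles. At most 24 probe sets had identical values on any pair of arrays.

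Of the probe sets, 21789 had 1 gene symbol in the platform annotation, 1621 had several and 12146 were not listed. Those with 1 symbol gave 19938 genes, taking the probe set with the highest mean. All 26 measured members kept their symbol when looked up by gene identifier in RefSeq (GRCm38.p6). The groups were compared with limma 3.58.1 in R 4.3.3 (lmFit, eBayes, two-sided, no filter or covariate) with Benjamini-Hochberg adjustment over all genes. The fit was tested on simulated data. The members, the context and marker lists and the tests were chosen with earlier results of these data known. All members are named, with up to 4 genes of each context list and up to 3 of each marker list by size of difference, and any other gene named was chosen after its values were seen. Promoter sequences are RefSeq's, and the 50 bases after the start were left out.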

Additional observations from a re-analysis of the deposited data

How the results depend on the processing

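Over 26 members and 19 alternatives, 483 of 494 member results kept direction and side of the threshold or had no call to change, 4 lost their call, 7 gained it and no called difference changed sign. The 4 losses were all of Abca1. The 16 members called higher and the 14 enzymes among them were the same number under every alternative that was run. Members called lower numbered 4 with array weights and 1 at adjusted p under 0.01 or with cultures 1 and 3 averaged, and 1 to 4 on leaving out 1 array, the low values coming without culture 1 or culture 3 and the 4 without culture 2. LXR genes called lower numbered 4 with array weights, 1 at adjusted p under 0.01, 1 with cultures 1 and 3 averaged and 1 to 3 on leaving out 1 array. Over all genes, 2622 were called higher and 2274 lower, but the balance turned with the scaling, to 2419 higher and 2682 lower after quantile normalisation and 2321 and 2606 after median centring. The counts were 3322 and 2877 with array weights, 811 and 561 with at least a 2-fold change, 1394 and 1072 at adjusted p under 0.01, and 1606 and 1316 with cultures 1 and 3 averaged. Leaving out 1 array gave 1533 to 2796 higher and 1211 to 2314 lower, the lowest without culture 1. Array weights, which give arrays unequal influence, and the averaged cultures, which leave fewer samples, were planned. Leaving out culture 2 and OS_716H together was chosen after seeing the data and called Mylip (-0.80, adjusted p = 0.0185). No paired analysis was made, because the tumour lines and the cultures of the stromal line have different origins and no label links a line to a culture. Probe sets have no detection call here, so values near 5, 6 or 7 cannot be told from background.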
